A study of Mus musculus with 10 samples.

Results

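Genes of the major histocompatibility complex (MHC) and of antigen presentation were followed across 5 sorted cell populations of the mouse mammary gland. The gene set held every protein-coding gene with an H2- symbol in GENCODE M21 (GRCm38), the name of the MHC in the mouse, plus B2m, Tap1, Tap2, Tapbp, Nlrc5, Ciita, Cd74, Psmb8 and Psmb9. These were 43 of the 49671 gene identifiers in the count tables, of which 34 carried an H2- symbol and 9 were listed by name. The rule rests on names and uses no expression values. The RNA came from mammary gland cells sorted by flow cytometry, with 2 libraries per population and 10 in all. Those named BC (basal) and LC (luminal) had no treatment label, and their second libraries were labelled wild type (BC-WT and LC-WT), while the first were not. TBC, THC and TLC, the Tomato basal, Tomato hybrid and Tomato luminal cells, had all undergone ablation of luminal cells, and Tomato is a red fluorescent protein used to mark cells. A difference of TBC from BC, or of TLC from LC, therefore contrasts ablation and Tomato marking together, and these cannot be told apart. The labels used here give no mouse line, strain, age, promoter of the Tomato marker or means of ablation, and do not tell whether both libraries of a population stem from different mice. The p-values then measure only the spread between these libraries, which may be technical.

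Class I molecules are built from a heavy chain, such as H2-K1 or H2-D1, and the light chain beta-2-microglobulin, and they show fragments of the cell's own proteins to cytotoxic T cells. The immunoproteasome subunits Psmb8 and Psmb9 cut proteins into such fragments, the Tap1 and Tap2 transporter carries them into the endoplasmic reticulum, Tapbp (tapasin) helps load them, and Nlrc5 is the transactivator of the class I genes. Class II molecules show fragments of engulfed material to helper T cells, are chaperoned by the invariant chain Cd74, exchange their peptides with the help of H2-DM and depend on the transactivator Ciita. Nearly all nucleated cells make class I, whereas class II is made mainly by dendritic cells, macrophages and B cells, and epithelia can take it up under interferon gamma.

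Promoter sequence of 5 genes is shown because H2-K1, H2-Q6, H2-Q4 and B2m had their highest mean in LC and H2-Aa its lowest. The sequences come from RefSeq (GRCm38.p6), which held a promoter for 36 of the 43 genes, and each is a stretch of 200 bases upstream of the gene's start, written 5′ to 3′ on the strand of the gene. Capitals mark exact matches, on either strand, to the kappaB-like site of H2-K1 (GGGGATTCCCC), to an interferon response element-like motif (GAANNGAAA, which reads TTTCNNTTC on the other strand) and to CCAAT, the core of the Y box of MHC promoters.
H2-K1 (chr17:34000348-34000547, minus strand): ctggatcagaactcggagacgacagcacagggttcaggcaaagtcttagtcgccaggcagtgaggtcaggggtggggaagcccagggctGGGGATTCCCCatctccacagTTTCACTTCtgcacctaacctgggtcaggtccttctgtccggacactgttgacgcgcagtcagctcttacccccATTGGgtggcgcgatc
H2-Q6 (chr17:35424650-35424849, plus strand): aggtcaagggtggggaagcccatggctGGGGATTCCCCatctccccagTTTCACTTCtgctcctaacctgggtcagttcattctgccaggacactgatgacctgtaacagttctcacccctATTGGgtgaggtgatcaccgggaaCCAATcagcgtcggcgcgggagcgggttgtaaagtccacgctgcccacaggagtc
H2-Q4 (chr17:35379417-35379616, plus strand): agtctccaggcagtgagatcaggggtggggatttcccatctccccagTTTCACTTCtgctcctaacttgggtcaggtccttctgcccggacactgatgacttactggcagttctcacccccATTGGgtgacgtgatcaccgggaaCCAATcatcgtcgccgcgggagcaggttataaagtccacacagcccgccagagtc
B2m (chr2:122147487-122147686, plus strand): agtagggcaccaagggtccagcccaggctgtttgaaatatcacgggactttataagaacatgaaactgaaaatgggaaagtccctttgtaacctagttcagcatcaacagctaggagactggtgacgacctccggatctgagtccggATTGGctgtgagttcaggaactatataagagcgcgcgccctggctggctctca
H2-Aa (chr17:34287824-34288023, minus strand): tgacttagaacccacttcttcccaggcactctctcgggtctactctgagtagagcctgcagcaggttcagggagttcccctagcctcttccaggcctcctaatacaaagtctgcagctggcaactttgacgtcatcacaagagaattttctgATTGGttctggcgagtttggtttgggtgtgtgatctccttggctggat
Within 250 bases upstream of the start, the kappaB-like motif stood in 3 of 15 promoters of class I chains and peptide supply genes, those of H2-Q6, H2-D1 and H2-K1 itself, and in 6 of all 27025 promoters (0.0222%). The interferon response element-like motif stood in 6 of the 15, which were H2-K1, H2-D1, H2-Q4, H2-Q6, H2-Q7 and H2-Q10, against 1713 of all promoters (6.34%). In H2-K1, H2-Q6 and H2-D1 the first letter of the kappaB-like motif lay 21 bases before that of the interferon response element-like motif. The kappaB-like letters were read from the H2-K1 promoter, so the match there was fixed in advance. H2- genes share sequence with one another, so the matches in H2-Q6 and H2-D1 may not be separate observations. Of 8 promoters of class II chains and of H2-DM and H2-O genes, 0 held either of these, while CCAAT stood in 7 of the 8, in 12 of the 15 and in 9314 of all promoters (34.5%). A match describes the letters only, and binding of a factor was not measured. Spellings with another spacing were not searched, such as GAAACTGAAA in the printed B2m stretch. A promoter without a match may therefore still hold an interferon response element. The promoter of H2-D1 is not printed because the stretch lies in an annotated exon.

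Counts assigned to genes ran from 2757773 in THC replicate 1 to 13685674 in LC replicate 2, and 3 counts equalled 0.202 to 1.16 CPM, the count scaled to library size with TMM factors. Intervals cover the spread between libraries, and floors from counts cover counting error only. The share of reads without a unique alignment ran from 14.6% to 43.0% and was highest in THC replicate 1. The labels matched the epithelial markers: 5 basal genes summed to 6242 and 8678 CPM (BC), 108 and 66.98 (LC), 9572 and 7015 (TBC), 3764 and 2677 (THC) and 1020.4 and 595 (TLC), and 6 luminal genes to 1256 and 915 CPM (BC), 7962 and 6145 (LC), 968 and 648 (TBC), 3387 and 2407 (THC) and 4678 and 3782 (TLC). The pseudogene H2-Ea-ps, which lacks its promoter in some MHC haplotypes and is transcribed in others, had 3 counts in BC-WT and 2 in LC-WT, against 8 to 39 counts in the 8 other libraries, although these were mostly shallower. The sources used here do not name the haplotypes of the mice, and the part of haplotype in the results was not tested. Members of the Q and T regions resemble one another. Of windows of 50 bases of its exons, H2-T22 shared 34.4% with another H2- gene, H2-Q6 27.0%, H2-Q7 25.1% and H2-Q4 16.5%. H2-D1 shared 10.9% and H2-K1 9.63%. With any other gene, overlapping genes included, the shares were 53.5%, 35.0%, 26.5%, 36.4%, 12.8% and 9.63% in the same order. Counts of single Q and T genes are therefore uncertain. B2m and Cd74 shared 0% of such windows.

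Of the 43 genes, 31 had enough counts to be tested and 12 did not. The 12 were 10 genes of the M region, H2-Ob and H2-Eb2, with at most 0.775 CPM in any library and at most 22 counts over all 10. H2-M10.3, H2-M10.4 and H2-M11 had 0 counts in every library. Per kilobase of exon, on the scale of CPM, the light chain gene was the highest of the set in every population, at 645 in BC, 1505 in LC, 671 in TBC, 1326 in THC, 503 in TLC. H2-D1 followed with 192 in BC, 349 in LC, 143 in TBC, 216 in THC, 119.7 in TLC, and H2-K1 with 129 in BC, 261 in LC, 122 in TBC, 166 in THC, 90.3 in TLC. Cd74, the highest gene of the class II route, reached 24.2 in BC, 12.5 in LC, 25.6 in TBC, 66.03 in THC, 16.8 in TLC on the same scale. Among the 31 tested genes, the population with the highest mean was LC for 23, THC for 6 and BC for 2, and that with the lowest mean was TLC for 17. The same counts over all tested genes were not taken, so these describe the 31 genes only.

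The heavy and light chains of class I were highest in LC and, by the mean of 2 libraries, lowest in TLC. H2-K1 (ENSMUSG00000061232, chr17:33996017-34000347), a classical heavy chain, measured 349 and 409.7 CPM (BC), 665 and 868 (LC), 374 and 344 (TBC), 569 and 408 (THC) and 285 and 246 (TLC). H2-D1 (ENSMUSG00000073411, chr17:35262730-35267499), the other classical heavy chain, measured 496 and 493 CPM (BC), 844 and 958 (LC), 417 and 321 (TBC), 708 and 405 (THC) and 329 and 289 (TLC). For both heavy chains the 2 LC libraries lay above the other 8, and THC replicate 1 came next. B2m (ENSMUSG00000060802, chr2:122147686-122153083) measured 670.1 and 440.0 CPM (BC), 1614 and 975 (LC), 724 and 430.5 (TBC), 1403 and 878 (THC) and 550.5 and 314 (TLC). In all 5 populations B2m was higher in replicate 1 than in replicate 2, so that the LC libraries lay on either side of THC replicate 1 and both lay above every BC and TLC library. Against BC, H2-K1 was higher in LC by 1.01 on the log2 scale (SE 0.25, adjusted p = 0.012 by edgeR's quasi-likelihood test), H2-D1 by 0.87 (SE 0.28, adjusted p = 0.046) and B2m by 1.22 (SE 0.41, adjusted p = 0.0498). From LC to TLC, H2-K1 differed by -1.53 (SE 0.26, adjusted p = 0.0045), H2-D1 by -1.55 (SE 0.29, adjusted p = 0.0083) and B2m by -1.58 (SE 0.41, adjusted p = 0.038). Between LC and BC the call of H2-K1 was lost without BC replicate 1 or LC replicate 2, that of B2m in 3 of 4 fits that left out a library and that of H2-D1 in all 4, with adjusted p up to 0.27 for B2m. The call of H2-K1 between TLC and LC held whichever of the 4 libraries was left out. That of B2m was lost in each of the 4 cases, with adjusted p up to 0.18, and that of H2-D1 in 3 of the 4, with adjusted p up to 0.054. In bulk RNA, fewer cells of a kind that makes much of a transcript and less transcript per cell cannot be told apart.

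**Figure D1:**
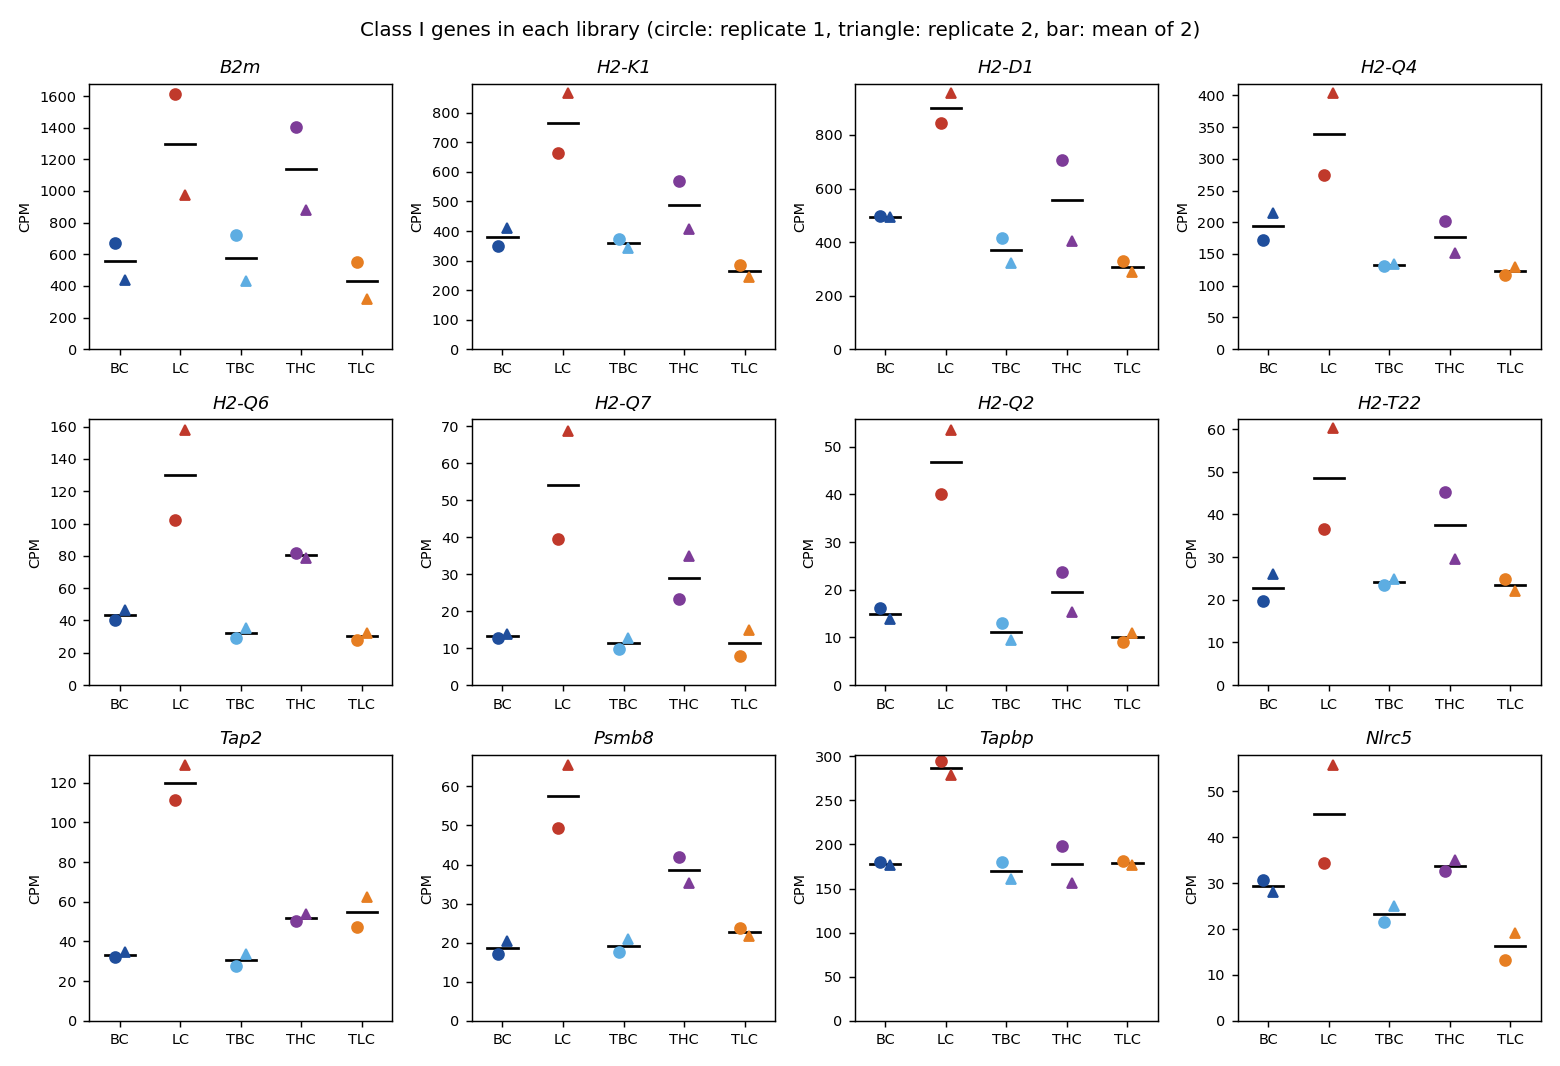
Level of 12 class I genes in CPM (vertical axes, each from 0) in the 5 populations (horizontal axes), with a circle for replicate 1, a triangle for replicate 2 and a bar for their mean. The mean of LC is the highest in all 12 panels, and TLC lies below LC in each, with Tap2 the panel in which TLC lies clearly above BC and TBC.

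The heavy chains of the Q and T regions, class Ib molecules that are less variable than H2-K1 and H2-D1, were for the most part also highest in LC. H2-Q6 measured 40.2 and 46.2 CPM (BC), 102 and 158 (LC), 29.05 and 35.04 (TBC), 81.7 and 78.9 (THC) and 28.1 and 32.4 (TLC). H2-Q7, which with H2-Q6 gives the Qa-2 antigen, measured 12.7 and 13.7 CPM (BC), 39.6 and 68.8 (LC), 9.79 and 12.8 (TBC), 23.2 and 34.9 (THC) and 7.72 and 14.8 (TLC). H2-Q2 measured 16.1 and 13.8 CPM (BC), 40.1 and 53.5 (LC), 12.9 and 9.46 (TBC), 23.6 and 15.3 (THC) and 8.95 and 11.01 (TLC). For each of these 3 genes both LC libraries lay above the other 8. Both THC libraries came next for H2-Q6 and H2-Q7, whereas THC replicate 2 fell among the BC libraries for H2-Q2. H2-Q4 measured 172 and 215 CPM (BC), 275 and 404 (LC), 131 and 134 (TBC), 201 and 151 (THC) and 117 and 129 (TLC). H2-Q10, best known as a secreted class I protein of liver, measured 21.6 and 24.5 CPM (BC), 39.1 and 53.2 (LC), 15.3 and 18.1 (TBC), 36.03 and 20.5 (THC) and 11.8 and 15.7 (TLC). H2-Q1 measured 9.21 and 11.1 CPM (BC), 18.1 and 21.4 (LC), 7.10 and 12.1 (TBC), 22.5 and 12.2 (THC) and 7.37 and 8.37 (TLC). H2-Q4 and H2-Q10 had both LC libraries above the rest, whereas for H2-Q1 THC replicate 1 was the highest library. H2-T22, a ligand of gamma delta T cells, measured 19.6 and 26.1 CPM (BC), 36.6 and 60.2 (LC), 23.5 and 24.8 (TBC), 45.3 and 29.6 (THC) and 24.9 and 21.9 (TLC). H2-T23, which encodes Qa-1, the ligand of the NK cell receptor NKG2A, measured 66.8 and 85.96 CPM (BC), 79.1 and 114 (LC), 73.3 and 60.03 (TBC), 89.9 and 56.1 (THC) and 54.4 and 56.8 (TLC). In both genes LC replicate 1 lay below THC replicate 1, and in H2-T23 also below BC replicate 2, so LC did not stand apart there.

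Between LC and BC, 6 of these 8 genes were higher in LC: H2-Q7 by 2.03 on the log2 scale (adjusted p = 0.0020), H2-Q2 by 1.65 (0.0019), H2-Q6 by 1.59 (0.00056), H2-T22 by 1.08 (0.021), H2-Q10 by 1.001 (0.031) and H2-Q4 by 0.81 (0.031). H2-Q1 had 0.95 with an adjusted p of 0.080, and H2-T23 had 0.34 with 0.42. The calls of H2-Q7, H2-Q2 and H2-Q6 held in each fit that left out 1 of the 4 libraries, those of H2-Q4 and H2-Q10 only in the fit without LC replicate 1, and that of H2-T22 was lost without BC replicate 1 or LC replicate 2. Between TLC and LC, 6 of the 8 were lower in TLC. These were H2-Q7 at -2.24 (adjusted p = 0.0045), H2-Q2 at -2.22 (0.0019), H2-Q6 at -2.10 (0.00079), H2-Q10 at -1.74 (0.0064), H2-Q4 at -1.46 (0.0049) and H2-Q1 at -1.32 (0.047). H2-T22 had -1.05 with an adjusted p of 0.052. The remaining tested genes of the Q and T regions, H2-T24 and H2-T3, reached at most 9.30 CPM in a library and were called in 0 comparisons.

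The genes that supply and load peptides were also highest in LC, but they divided in TLC. Tap2 (ENSMUSG00000024339, chr17:34203527-34216321), a subunit of the peptide transporter, measured 31.9 and 34.8 CPM (BC), 111 and 129 (LC), 27.8 and 33.6 (TBC), 50.4 and 53.7 (THC) and 47.2 and 62.5 (TLC). Both LC libraries lay far above the others, and TLC and THC lay above BC and TBC. Tap2 was higher in LC than in BC by 1.84 on the log2 scale (SE 0.22, adjusted p = 0.00011), and lower in TLC than in LC by a log2 difference of -1.13 (SE 0.21, adjusted p = 0.0085). It was also higher in TLC than in TBC, by 0.84 (SE 0.21, adjusted p = 0.022), and it was the 1 of the 31 tested genes called there in this fit. That last call was lost when TLC replicate 2 or either TBC library was left out, with adjusted p up to 0.18. Tap1, its partner in the transporter, measured 24.3 and 46.5 CPM (BC), 47.04 and 66.7 (LC), 38.7 and 35.3 (TBC), 55.4 and 48.1 (THC) and 52.1 and 39.4 (TLC). LC replicate 1 lay just above BC replicate 2 and below both THC libraries and TLC replicate 1, and Tap1 was called in 0 comparisons, with 0.67 (adjusted p = 0.14) between LC and BC and -0.32 (0.61) between TLC and LC.

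Psmb8, the immunoproteasome subunit beta5i, measured 17.1 and 20.4 CPM (BC), 49.3 and 65.5 (LC), 17.5 and 20.96 (TBC), 41.8 and 35.3 (THC) and 23.7 and 21.8 (TLC). Psmb9, subunit beta1i, measured 5.10 and 6.97 CPM (BC), 17.6 and 22.04 (LC), 8.05 and 6.67 (TBC), 17.05 and 9.92 (THC) and 7.89 and 10.2 (TLC). In both the LC libraries lay highest, and THC replicate 1 lay close below LC replicate 1. Psmb8 was higher in LC than in BC by 1.61 on the log2 scale (adjusted p = 0.00055) and lower in TLC than in LC at -1.34 (0.0065). Psmb9 was higher in LC than in BC by 1.69 (0.0044), while its difference of -1.12 between TLC and LC missed the threshold (0.068). The calls of Psmb8, Psmb9 and Tap2 between LC and BC held whichever of the 4 libraries was left out. Tapbp measured 179.7 and 176 CPM (BC), 294 and 278 (LC), 179.5 and 161 (TBC), 198 and 157 (THC) and 181 and 177 (TLC). It was higher in LC than in BC by 0.69 (adjusted p = 0.027), a call lost in all 4 fits that left out a library, with adjusted p up to 0.11. Of the exon bases of Tapbp, 24.9% overlap other genes on the opposite strand, and the sources used here do not say whether counting used strand. Other genes called between LC and BC also overlap genes on the opposite strand. The share of exon bases was 29.4% for H2-T22, 19.1% for H2-Q4, 18.5% for Tap2, 14.7% for Psmb8 and 5.79% for Psmb9. Nlrc5, the class I transactivator, measured 30.6 and 28.1 CPM (BC), 34.4 and 55.7 (LC), 21.6 and 24.9 (TBC), 32.5 and 34.96 (THC) and 13.3 and 19.2 (TLC). Its lowest libraries were those of TLC, and it was lower in TLC than in LC by a log2 difference of -1.46 (adjusted p = 0.0095), whereas LC and BC differed by 0.62 (0.13).

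Counted over the whole set, LC differed from BC in 14 of the 31 tested genes, 13 higher and 1 lower, in a comparison where 24.0% of all 19757 tested genes were called, 11.5% higher in LC and 12.5% lower. The 13 were all among the 19 tested genes of the class I route (H2-K1, H2-D1, the Q and T genes, B2m, the 5 genes of peptide supply and Nlrc5), of which 18 had a positive log2 fold change and the median was 1.01. The median over the 31 was 0.69 against -0.04 over all tested genes. The number called depended on single libraries: it was smaller in each fit that left out a BC or LC library, as was the number called among all tested genes. The sum of 6 pan-immune markers was 5.42 and 4.31 CPM in LC, and of the 10 libraries only BC replicate 2 was lower, at 4.08. The 7 T and NK cell markers summed to 4.12 and 5.31 CPM in LC, against 3.14 and 1.96 in BC and 1.75 and 2.27 in TLC, and of the 10 libraries only THC replicate 1 was higher than LC. Of these 7, Cd3e alone measured 2.06 and 4.02 CPM in LC against 0.196 and 0.935 in BC. The 3 of the 7 that were tested had a median log2 difference of -0.47 between LC and BC. The part of such cells in the class I levels was not tested.

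TLC, the Tomato luminal cells of ablated glands, had less class I transcript than LC. Of the 31 genes, 12 were lower in TLC than in LC and 0 were higher, where 8.22% of all tested genes were called, 3.77% lower and 4.46% higher. All 12 belonged to the class I route, in which 19 of 19 genes had a negative log2 fold change and the median was -1.46. Over the 31 the median was -1.32, against 0.00 over all tested genes. The number called was smaller in each of the 4 fits that left out a TLC or LC library, as was the number called among all tested genes. The calls of H2-K1, H2-Q6 and H2-Q2 held in each of these 4 fits. Those of B2m and H2-Q1 held in 0, and the other 7 in 1 to 3, lost without LC replicate 2, TLC replicate 1 or, for H2-D1, also TLC replicate 2. LC replicate 1, whose label does not name it as wild type, lay above both TLC libraries in each of the 12 genes. These 12 were called in a fit that included this library, so the order is no separate support. Of all tested genes, 49.2% had no overlap between the TLC and LC libraries. The part of the wild type label was not tested. Basal markers moved with the difference between TLC and LC, at 108 and 66.98 CPM in LC against 1020.4 and 595 in TLC, and their part in it was not tested.

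On the basal side no member passed the test between TBC and BC. H2-K1 differed by -0.08 on the log2 scale (95% interval -0.63 to 0.47), H2-D1 by -0.42 (-1.04 to 0.20) and B2m by 0.06 (-0.83 to 0.94). edgeR's quasi-likelihood test called 0 of the 31 genes and 0% of all tested genes. At an unadjusted p under 0.05 there were 1 of the 31, H2-Q4 with -0.55, and 1725 of all genes, while DESeq2 called 0 of the 31 and 207 of all, and limma-voom 0 of both. The median was -0.12 over the 31 and -0.03 over all tested genes. Between the 2 lineages of the ablated glands, TLC and TBC, 1 of the 31 genes was called, Tap2, where 13.6% of all tested genes were, 5.59% higher in TLC and 8.02% lower. H2-K1 had a log2 difference of -0.44 (95% interval -0.99 to 0.11), H2-D1 of -0.26 (-0.88 to 0.36), B2m of -0.42 (-1.30 to 0.47) and H2-Q6 of -0.08 (-0.61 to 0.44). The median over the 31 was -0.26, against 0.03 over all tested genes.

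**Figure D2:**
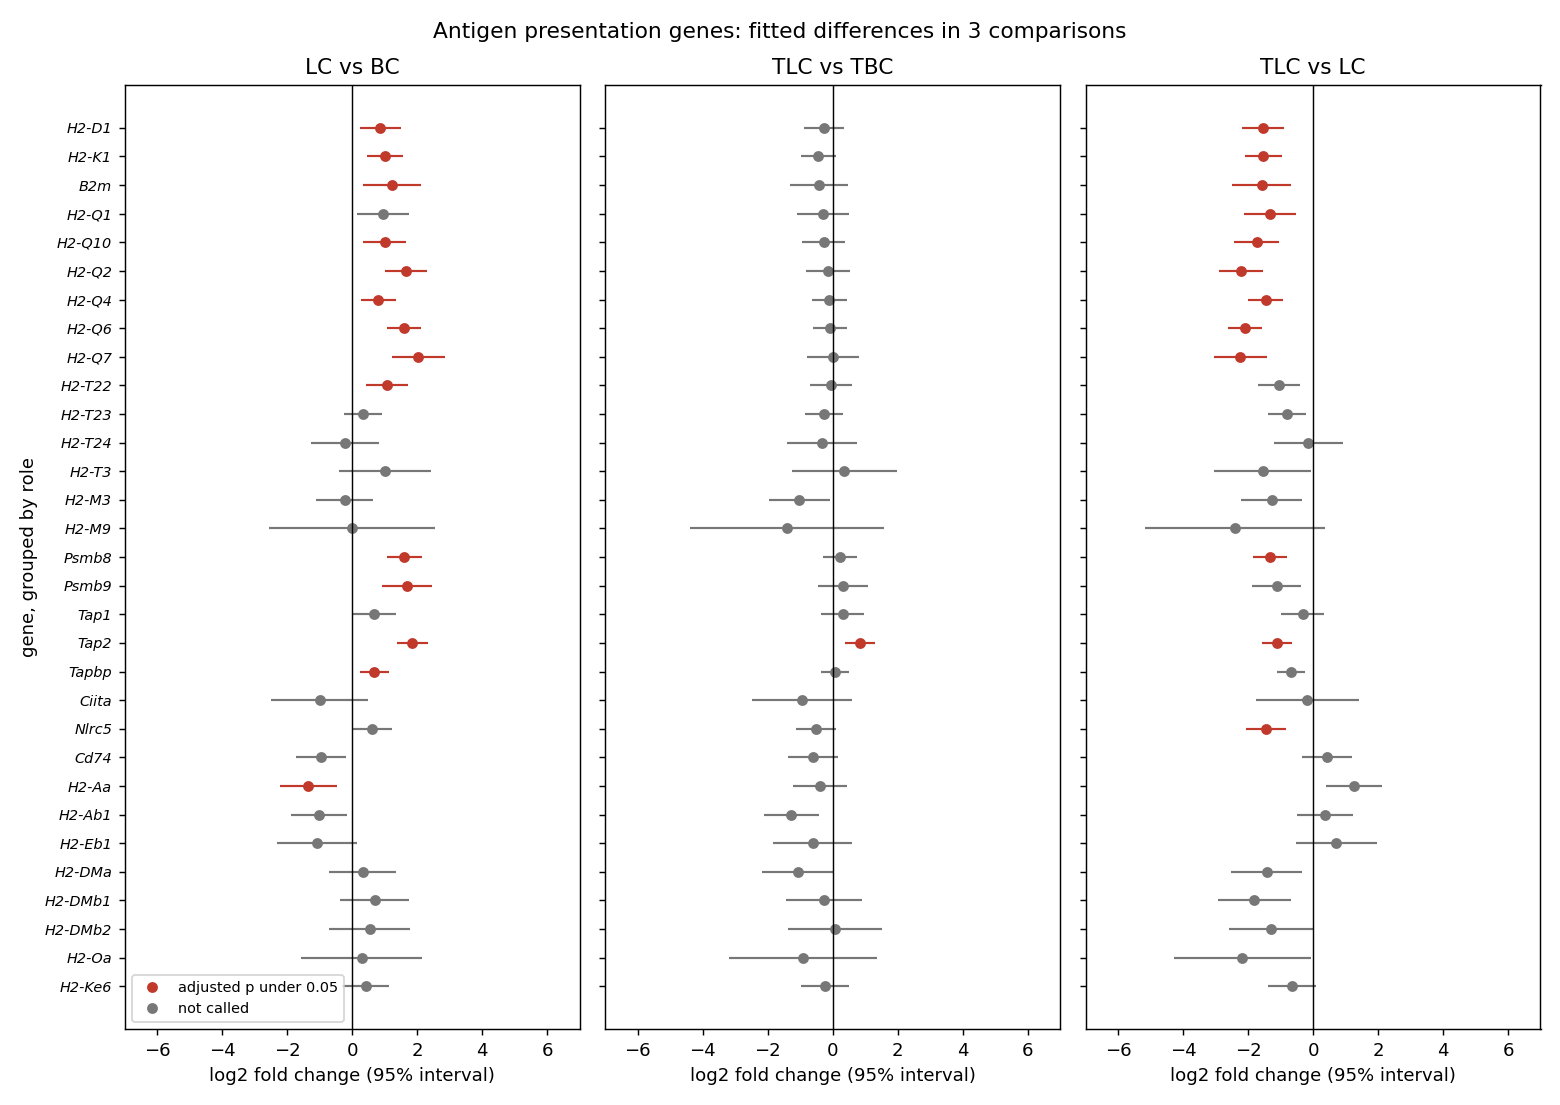
Fitted log2 fold change (horizontal axes) of the 31 tested genes, grouped by role (vertical axis), between LC and BC, TLC and TBC, and TLC and LC, with lines for 95% intervals and red for an adjusted p under 0.05. The 13 genes higher in LC than in BC and the 12 genes lower in TLC than in LC are genes of the class I route, and 1 gene, Tap2, is red between TLC and TBC.

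Whether the change on the luminal side differed from that on the basal side was tested directly, as TLC minus LC against TBC minus BC. H2-Q6 differed, by -1.67 on the log2 scale (SE 0.34, 95% interval -2.41 to -0.94, adjusted p = 0.045), and was the 1 of the 31 genes called in this fit, where 0.911% of all tested genes were, 0.359% with a negative value and 0.552% with a positive one. That call was lost in 7 of the 8 fits that left out a library, all but the one without LC replicate 1, with adjusted p up to 0.18. H2-K1 had -1.45 (-2.23 to -0.67, adjusted p = 0.10), H2-D1 -1.12 (-2.002 to -0.25, 0.30) and B2m -1.64 (-2.90 to -0.38, 0.28). All 19 genes of the class I route had a negative value, with a median of -1.13, and 27 of the 31 did, with a median of -1.01 against 0.05 over all tested genes. At an unadjusted p under 0.05 there were 14 of the 31, and 2101 of all 19757 tested genes.

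In the hybrid cells 2 genes of the class I route passed the test above TBC and 1 above TLC. THC was higher than TBC in H2-Q6, by 1.32 on the log2 scale (adjusted p = 0.012), and in Psmb8, by 0.99 (0.046), which were 2 of the 31 genes where 3.72% of all tested genes were called, 2.57% higher and 1.14% lower. The 19 class I route genes all had a positive log2 fold change against TBC, with a median of 0.72, and the medians over the 31 and over all genes were 0.72 and 0.03. H2-Q7 had 1.37 (0.069), Tap2 0.76 (0.081), B2m 0.98 (0.24) and H2-K1 0.44 (0.41), none of them called. Against TLC, 3 of the 31 genes were higher in THC, where 1.61% of all tested genes were called, 1.52% higher and 0.0911% lower. These were H2-Q6 by 1.41 (0.019) and the class II route genes Cd74 and H2-Ab1. Of the 19 class I route genes, 17 had a positive value against TLC and 2 a negative one, Tap2 with -0.08 and Tapbp with -0.01, and the median of the 19 was 0.85. The median was 1.001 over the 31 and 0.02 over all tested genes. Leaving out any 1 library ended the calls of H2-Q6 and Psmb8 in these comparisons, with adjusted p up to 0.14 for H2-Q6 and 0.27 for Psmb8. The 2 THC libraries also differed from each other: H2-D1 stood at 708 and 405 CPM and B2m at 1403 and 878.

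Cd74 and the classical class II chains H2-Aa, H2-Ab1 and H2-Eb1 ran in another order: their means were highest in THC and lowest in LC. Cd74, the invariant chain, measured 43.7 and 37.6 CPM (BC), 23.5 and 18.3 (LC), 41.2 and 44.8 (TBC), 158 and 64.05 (THC) and 30.5 and 25.8 (TLC). H2-Aa (ENSMUSG00000036594, chr17:34282744-34287823), the alpha chain of I-A, measured 14.9 and 8.42 CPM (BC), 4.88 and 4.16 (LC), 14.1 and 14.2 (TBC), 46.1 and 22.7 (THC) and 11.9 and 9.83 (TLC). H2-Ab1 (ENSMUSG00000073421, chr17:34257689-34269419), its beta chain, measured 9.60 and 7.48 CPM (BC), 4.77 and 3.59 (LC), 11.1 and 14.7 (TBC), 27.9 and 13.8 (THC) and 5.26 and 5.46 (TLC). In all 3 genes THC replicate 1 was the highest library, THC replicate 2 was second for Cd74 and H2-Aa but below TBC replicate 2 for H2-Ab1, and both LC libraries lay below every other library. Cd74 was higher in THC than in TLC by 1.96 on the log2 scale (SE 0.36, adjusted p = 0.023), and H2-Ab1 by 1.91 (SE 0.40, adjusted p = 0.038). H2-Aa had 1.64 (0.061). The call of H2-Ab1 was lost whichever library was left out, and that of Cd74 in all fits but the one without THC replicate 2, with adjusted p up to 0.25. Against TBC, Cd74 had 1.35 (0.062) and was not called. H2-Aa was lower in LC than in BC, with a log2 difference of -1.35 (adjusted p = 0.028), and was the 1 gene of the set lower there. That call held only in the fit without BC replicate 2, with adjusted p up to 0.19. Cd74 and H2-Ab1 had -0.96 (0.072) and -1.03 (0.083) between LC and BC.

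H2-Eb1, the beta chain of I-E, lay under the level set for naming and is given because it completes the classical chains, a choice made after its values were seen. It measured 2.94 and 3.91 CPM (BC), 0.976 and 2.23 (LC), 3.79 and 4.47 (TBC), 12.01 and 4.59 (THC) and 2.46 and 2.91 (TLC), again highest in THC replicate 1. Ciita, the class II transactivator, measured 1.37 and 2.98 CPM (BC), 0.759 and 1.44 (LC), 1.26 and 2.42 (TBC), 1.55 and 1.55 (THC) and 0.351 and 1.46 (TLC). At these few counts Ciita was called in 0 comparisons. Both THC libraries lay just above those of LC and TLC, while the libraries of all other pairs of populations overlapped. The peptide exchange genes H2-DMa, H2-DMb1, H2-DMb2 and H2-Oa reached at most 6.82 CPM in a library and were called in 0 comparisons. Their median log2 difference was -1.62 between TLC and LC and 0.43 between LC and BC, where Cd74 had 0.43 and -0.96. Over the 9 tested class II route genes, the median was 1.40 between THC and TLC, where all 9 were positive and 2 were called, 0.91 between THC and TBC, -0.96 between LC and BC and -0.18 between TLC and LC. H2-M3, a class Ib molecule that presents formylated peptides, ranged from 2.09 CPM in TLC replicate 2 to 6.80 in BC replicate 2, and H2-M9 reached at most 2.23 CPM. Both were called in 0 comparisons. H2-Ke6, an enzyme gene that carries the H2- name and presents nothing, measured 10.8 and 18.9 CPM (BC), 16.9 and 23.1 (LC), 13.6 and 16.4 (TBC), 13.2 and 12.1 (THC) and 10.3 and 15.01 (TLC) and was called in 0 comparisons. Of its exon bases, 86.4% overlap Gm20427 on the same strand, so its level is uncertain.

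Several sums of markers of other cells were highest in THC, as were the means of Cd74 and the classical class II chains. Ptprc, which encodes CD45 of blood cells, measured 5.49 and 0.935 CPM (BC), 2.60 and 0.790 (LC), 5.37 and 2.13 (TBC), 22.1 and 12.1 (THC) and 1.05 and 2.91 (TLC). The 6 pan-immune markers summed to 12.9 and 4.08 CPM (BC), 5.42 and 4.31 (LC), 18.8 and 9.09 (TBC), 65.1 and 29.8 (THC) and 8.60 and 8.92 (TLC), with 0 of the 6 at 0 counts in any library. The 12 macrophage and dendritic cell markers summed to 65.1 and 25.6 CPM (BC), 31.7 and 26.99 (LC), 71.4 and 38.5 (TBC), 195 and 83.4 (THC) and 43.9 and 44.1 (TLC), with 0 to 3 of the 12 at 0 counts in a library. Each of these sums was highest in THC replicate 1 and next highest in THC replicate 2, as was Cd74. The 5 B cell markers summed to at most 3.10 CPM in a library, with 0 to 4 of the 5 at 0 counts, and the 7 T and NK cell markers to at most 7.36, in THC replicate 1. Endothelial markers, 7 genes, summed to 325 and 70.3 CPM (BC), 178 and 35.8 (LC), 137 and 126 (TBC), 442 and 416 (THC) and 67.4 and 70.5 (TLC). Fibroblast markers, 6 genes, summed to 292 and 239 CPM (BC), 318 and 289.8 (LC), 305 and 585 (TBC), 837 and 1899.7 (THC) and 102 and 332 (TLC). Pericyte markers, 5 genes, had their highest sum in TLC replicate 2, at 380 CPM, against 374 and 310 in THC. Of these, Notch3 alone measured 247 and 358 CPM in TLC, 256 and 272 in LC and 141 and 155 in THC. Rgs5, Kcnj8 and Abcc9 had their highest mean in THC, with Rgs5 at 179 and 110 CPM against 9.82 and 15.5 in TLC. The mean of Pdgfrb was 30.5 CPM in BC and 29.96 in THC. Single markers also ran otherwise. Mean CPM was highest in BC for Cd68 (21.9 against 14.3 in THC) and Pdgfra (60.6 against 27.9). For Dcn it was highest in LC (271 against 105 in THC). The part of these other cells in the level of Cd74, H2-Aa and H2-Ab1 in THC was not tested.

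**Figure D3:**
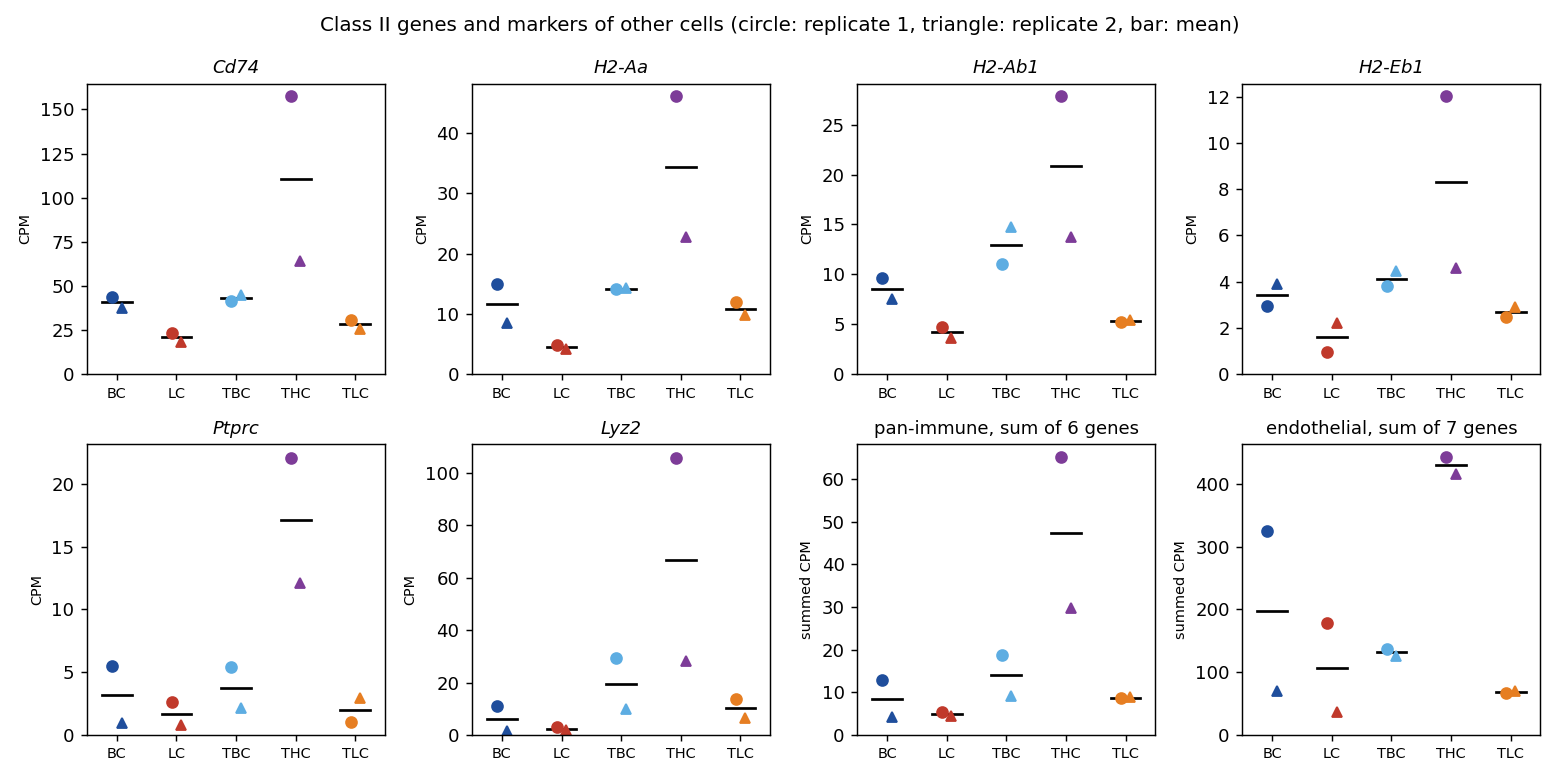
Level in CPM (vertical axes, each from 0) of Cd74, H2-Aa, H2-Ab1 and H2-Eb1, of the blood cell gene Ptprc and the macrophage gene Lyz2, and summed CPM of 6 pan-immune and 7 endothelial markers, by population (horizontal axes; circle, replicate 1; triangle, replicate 2; bar, mean). The mean of THC is the highest in all 8 panels, and that of LC is the lowest in the 4 class II panels. THC replicate 2 lies below TBC replicate 2 for H2-Ab1 and below TBC replicate 1 for Lyz2.

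Other genes of the pathway were called in both directions between LC and BC. Of 77 genes of interferon signalling, MHC promoter factors, proteasome, peptide loading, the class II route, MHC-like molecules and interferon-stimulated genes, 73 were tested. Between LC and BC, 9 were higher and 6 lower in LC, where 11.5% of all tested genes were called higher and 12.5% lower. The median log2 difference was 0.27 against -0.04 over all tested genes. The 6 with the smallest adjusted p were the signal peptide peptidase-like gene Sppl2a, which trims Cd74 (1.63 on the log2 scale, adjusted p = 0.00017), the cathepsin Ctsh (1.95, 0.00035), the cytokine signalling inhibitors Socs1 (-2.42, 0.00095) and Socs3 (-2.11, 0.0032), the proteasome activator Psme1 (1.11, 0.0064) and the transcription factor Irf1 (-1.22, 0.0070). Psmb10, the remaining immunoproteasome subunit, was higher in LC as well (0.92, 0.038). Irf1, an activator of class I genes, was lower in LC, where those genes were higher, and its part in their level was not tested. The calls of Sppl2a, Ctsh, Socs1 and Socs3 held whichever of the 4 libraries was left out, while Psme1 was lost without BC replicate 2, Irf1 without BC replicate 2 or LC replicate 2, and Psmb10 in all fits but the one without BC replicate 1. Rfx5, a subunit of the factor that binds the X box of MHC promoters, had 0.62 (0.16) and was not called.

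Between TLC and LC, 3 of the 73 were lower and 0 higher, where 3.77% of all tested genes were called lower and 4.46% higher. The median was -0.10 against 0.00 over all tested genes. Fcgrt, the heavy chain of the neonatal Fc receptor, measured 45.3 and 44.4 CPM (BC), 33.7 and 29.1 (LC), 27.9 and 31.01 (TBC), 27.9 and 22.8 (THC) and 13.2 and 13.1 (TLC) and had a log2 difference of -1.26 (adjusted p = 0.0064). Mr1, which presents vitamin B metabolites, measured 35.5 and 37.9 CPM (BC), 42.6 and 47.02 (LC), 26.5 and 31.01 (TBC), 32.5 and 25.5 (THC) and 22.5 and 16.7 (TLC) and had -1.20 (0.011). Both encode class I-like heavy chains that pair with B2m, and both had their lowest libraries in TLC. The third was the kinase Jak2 (-1.06, 0.014). Fcgrt was lost without TLC replicate 1 (adjusted p = 0.0502), Mr1 without LC replicate 2 or TLC replicate 2 (up to 0.069), and Jak2 in all fits but the one without LC replicate 1. Irf1 had 0.23 (0.70), Rfx5 -0.27 (0.67) and Psmb10 -0.97 (0.062). Between TLC and TBC, 5.59% of all tested genes were called higher and 8.02% lower. Of the 73, Ctsh (1.80, 0.0013) and Sppl2a (1.30, 0.0015) were higher there, and Socs3 (-2.20, 0.0045), Fcgrt (-1.17, 0.0048) and Socs1 (-1.93, 0.0072) were lower. Of these 5, Socs1 was lost without TLC replicate 2 and Socs3 without TLC replicate 1. THC exceeded TBC in Ctsh (1.54, 0.011) and TLC in Ctss, a cathepsin of antigen-presenting cells that cleaves Cd74 (2.99, 0.047), and each call was lost in 3 of 4 fits that left out a library, with adjusted p up to 0.14 for Ctsh and 0.34 for Ctss. Of all tested genes, 2.57% were called higher in THC than in TBC and 1.52% higher in THC than in TLC. Between TBC and BC, 0 of the 73 were called, as for the 31 genes above.

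Interferon-stimulated genes followed the order of the class I genes over the libraries only in part. The mean log2 CPM of 17 such genes was 3.04 and 2.89 (BC), 3.45 and 3.71 (LC), 4.32 and 2.94 (TBC), 5.14 and 3.69 (THC), 4.01 and 3.09 (TLC). In each of the 3 Tomato populations it was higher in replicate 1 than in both LC libraries. The mean log2 CPM of 5 core class I genes (B2m, H2-K1, H2-D1, Tap1 and Psmb8) was 7.10 and 7.26 (BC), 8.19 and 8.34 (LC), 7.24 and 7.01 (TBC), 8.05 and 7.57 (THC), 7.18 and 6.84 (TLC). THC replicate 1 was highest in the first mean and below both LC libraries in the second. In all 3 Tomato populations replicate 1 exceeded replicate 2 in both means. Of the 17 interferon-stimulated genes, edgeR's test called 1 higher in LC than in BC, where 11.5% of all tested genes were. This was Bst2 (2.74 on the log2 scale, adjusted p = 0.036, lost whichever library was left out). Between TLC and LC the test called 0 of the 17, where 8.22% of all tested genes were called.

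**Figure D4:**
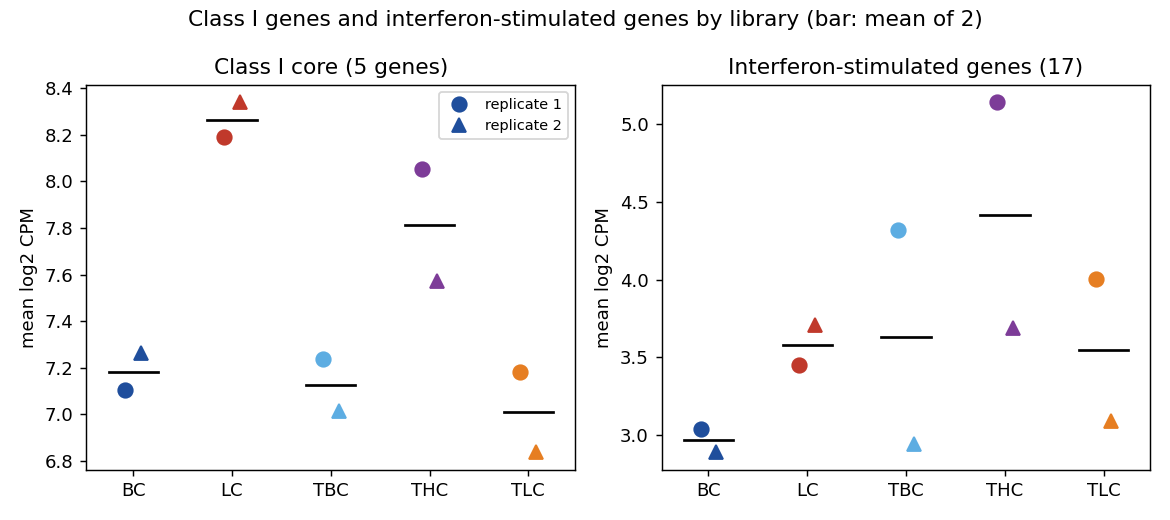
Mean log2 CPM (vertical axes, not starting at 0) of 5 core class I genes (left) and of 17 interferon-stimulated genes (right) in each library (circle, replicate 1; triangle, replicate 2; bar, mean of both) by population. LC is highest on the left and THC replicate 1 on the right, where replicates 1 and 2 of the Tomato populations lie apart.

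Among 19660 other genes, those most like the class I core mean over the 10 libraries were Il6ra (Pearson r = 0.97), the receptor of interleukin 6, Abhd12 (0.96), Gm48727 (0.96), Gm17231 (0.955) and Polk (0.95), a DNA polymerase. Most like Cd74 were Mir5107 (0.97), Trarg1 (0.93), Scn4b (0.92), Hoxd9 (0.92) and Mrps36 (0.92). Mir5107 lies within an exon of Cd74, so both can count the same reads. These values describe 10 libraries in 5 populations and carry no test.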

How the data were processed

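Total RNA of sorted mammary gland cells was extracted with the RNeasy Micro kit, made into libraries with the Ovation Solo system and sequenced on a NovaSeq system, per the labels' protocols. The deposited values are counts of reads per Ensembl gene, which the authors made with STAR and HTSeq on GRCm38 (mm10), per the submitters' processing notes. The sources used here do not name tool versions, annotation release or strand setting. The 5 HTSeq summary entries, among them reads without a unique alignment at 14.6% to 43.0%, stayed out of library sizes and tests. Of 49671 identifiers, 49412 matched GENCODE M21.

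Populations follow the cell type in the labels, and replicates are numbered in record order. Counts of 19757 genes that passed filterByExpr were fitted with edgeR 4.0.16 (R 4.3.3; TMM factors, robust quasi-likelihood F-test) over all 10 libraries, with 1 coefficient per population and 5 residual degrees of freedom. A call is a Benjamini-Hochberg adjusted p under 0.05 over all genes tested, and such p-values follow most log2 differences in parentheses. CPM uses TMM factors, and a prior count of 2 was added before logs. Depth ran from 2757773 to 13685674 counts. The model was tested on simulated data.

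The members and gene lists were chosen with earlier results of these data known. Named with every library's value were the 9 members listed by symbol and H2- genes of at least 10 CPM in a population, together with up to 6 called pathway genes per comparison by adjusted p, and Irf1, Rfx5 and Psmb10. One further gene named by the rule is not reported here. The 5 genes most like the class I core mean and the 5 most like Cd74 were taken by Pearson r over the libraries. Alternatives were RLE and upper-quartile factors, DESeq2 1.42.0, limma-voom (limma 3.58.1), no filter, a filter of 5 CPM in 2 libraries, library-number set as a term, only the populations compared, counts thinned to 2757773 and leaving out each library. H2- pseudogenes were not members. Protein sequences were not used here.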

Additional observations from a re-analysis of the deposited data

Results flagged for a closer look

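H2-Q6 was marked because its change on the luminal side (TLC minus LC) differed from that on the basal side (TBC minus BC) by the test of the difference itself. The log2 difference of the 2 changes was -1.67 with an adjusted p of 0.045 in edgeR's quasi-likelihood test. H2-Q6 fell in TLC against LC (-2.10), while TBC against BC had -0.43 and was not called. Both TLC libraries lay below both LC libraries. The call held in 4 of 9 other processing settings and in 1 of 8 fits that left out a library, and the cause was not tested. Of the H2-Q6 exon windows of 50 bases, 35.0% occur in another gene and 27.0% in another H2- gene, so reads may be shared with these.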

How the results depend on the processing

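The number of the 31 genes called (14, 1, 0, 12, 2, 3 and 1 in the order LC vs BC, TLC vs TBC, TBC vs BC, TLC vs LC, THC vs TBC, THC vs TLC and the difference of the luminal and basal changes) depended on the processing in 6 of the 7 comparisons, while TBC vs BC had 0 in every setting. DESeq2 called 2 in TLC vs TBC, 5 in THC vs TBC, 7 in THC vs TLC and 5 in the difference of changes. Of all tested genes it called 2911, 1385, 782 and 505 there, against 2689, 734, 318 and 180 in the main fit. Without a filter on low counts there were 2, 6, 10 and 6, and 3412, 1839, 1143 and 725 of all 34928 genes. Counts thinned to the shallowest library gave 6 in LC vs BC, 0 in TLC vs TBC, 7 in TLC vs LC, 0 in THC vs TBC, 1 in THC vs TLC and 0 in the difference of changes, with fewer genes tested. Limma-voom gave 1 in THC vs TBC. The difference of changes had 0 under limma-voom, upper-quartile factors, a filter of 5 CPM and a fit of only the populations compared. That last fit gave 9 in LC vs BC and 2 in TLC vs TBC. With the library-number set as a replicate block, 15, 2, 0, 18, 7, 7 and 5 genes were called in the order above. Of all tested genes, 5828, 3561, 33, 2527, 1510, 683 and 425 were called with this block. The labels state no pairing, and the main fit took the numbers as names and not as pairs. Over 10 pairs of populations the correlation of deviations from the means ran from -0.01 to 0.42, with 8 over 0.1 and 2 not. Over the tested members it ran from -0.37 to 0.73. These values do not show that the sets are unrelated. A difference shared by the libraries of a set adds to the spread in the main fit. Leaving out 1 library gave 6 to 11 in LC vs BC, 0 to 1 in TLC vs TBC, 4 to 11 in TLC vs LC, 0 to 1 in THC vs TBC, 0 to 1 in THC vs TLC and 0 to 1 in the difference of changes. In such a fit the lone library of a population is assumed to vary like the other groups. The number called over all tested genes fell as well in each such fit of LC vs BC and of TLC vs LC. Upper-quartile factors moved the median of all genes by 0.12 in the difference of changes. Of single log2 fold changes over all alternatives, 2663 kept their side of the threshold, 113 lost it, 72 gained it and 0 called ones changed sign. CPM of the raw library total moved levels by a ratio of 0.951 to 1.10. The cause of these changes was not tested. With 2 libraries per population and genes of few counts, such as Ciita and H2-M9, small differences were not detectable.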

Other observations

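H2- pseudogenes outside the set, which resemble its members in sequence, were measured in the same libraries. H2-K2 measured 37.04 and 39.7 CPM (BC), 59.7 and 68.6 (LC), 44.4 and 28.7 (TBC), 64.3 and 32.9 (THC) and 27.01 and 23.4 (TLC). H2-Q5 measured 9.41 and 12.4 CPM (BC), 19.4 and 33.7 (LC), 9.47 and 7.40 (TBC), 13.6 and 13.8 (THC) and 7.37 and 10.8 (TLC). H2-T10 measured 11.6 and 13.5 CPM (BC), 24.7 and 22.04 (LC), 10.6 and 6.60 (TBC), 21.3 and 9.72 (THC) and 11.4 and 6.73 (TLC). The mean of LC was the highest in each of these 3, and THC replicate 1 lay between the LC libraries for H2-K2 and just below them for H2-T10. Because H2-T10 shares sequence with H2-T22, their counts may not be separate.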
